A study of Homo sapiens with 19 samples.

Results

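The fate of pyruvate is decided by a small group of genes, and 9 of them, out of 23441 gene symbols with deposited RNA counts, are described here. LDHA and LDHB encode the subunits of lactate dehydrogenase, PDK1, PDK2, PDK3 and PDK4 the pyruvate dehydrogenase kinases, PDHA1 the subunit of pyruvate dehydrogenase that these kinases phosphorylate, and SLC16A1 (MCT1) and SLC16A3 (MCT4) the plasma membrane carriers of lactate. They were taken by symbol as a named list, without use of their values, and their expression was followed in 9 RNA-seq libraries together with the peaks near their start sites in 7 ChIP-seq peak lists. All samples came from 786-O, an established human line from a clear cell renal carcinoma that is defective for VHL. Pools of these cells, all on the same VHL-defective background, were transduced with lentivirus (pRRL) carrying no insert (control cells), HIF-1a cDNA (pRRL-HIF-1a, the HIF-1α pool) or HIF-2a cDNA (pRRL-HIF-2a, the HIF-2α pool). There were 3 RNA-seq libraries per pool, numbered 1 to 3, and 1 ChIP-seq library per antiserum and pool. Because VHL is defective, the control cells are not a state without HIF: endogenous HIF-2α is stable in them in normal oxygen, whereas the HIF1A transcripts they make are truncated according to the study.

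Lactate dehydrogenase interconverts pyruvate and lactate, and tetramers rich in the LDHA product are the form typical of glycolytic tissue, while the LDHB product prevails in oxidative tissue such as heart. Pyruvate dehydrogenase instead commits pyruvate to acetyl-CoA in mitochondria, and the 4 kinases switch it off by phosphorylating the PDHA1 product. HIF, a dimer of an α subunit with HIF-1β, binds a short core sequence of hypoxia response elements, and LDHA, PDK1 and SLC16A3 are textbook HIF targets of the response that diverts pyruvate to lactate for export. The comparison of the pools therefore asks whether more HIF-1α, or more HIF-2α, on top of the endogenous HIF-2α changes these RNAs, and where HIF sits at their genes.

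Library totals ranged from 27852754 to 54287621 counts. Levels are given as CPM, the counts relative to library size scaled with TMM factors. Of the renal line markers, PAX8 (175 to 364 CPM), VIM (3963 to 5671 CPM), KRT8 (289 to 603 CPM), KRT18 (84.9 to 212 CPM) and PAX2 (8.53 to 26.7 CPM) were present in all 9 libraries, UMOD was at 0 in all 9 libraries, and PTPRC, ALB and PECAM1 stayed at or under 0.838 CPM. CA9, the remaining marker of the line, was not present throughout. It was at 0, 0.171 and 14.3 CPM in control replicates 1, 2 and 3. In the HIF-1α pool CA9 was at 8.46, 177 and 68.3 CPM and in the HIF-2α pool at 0.120, 0.105 and 0.694 CPM. The epithelial keratins differed between pools. KRT8 was at 488 to 603 CPM in control cells and 305 to 380 CPM in the HIF-1α pool, and KRT18 at 172 to 212 and 84.9 to 142 CPM, without overlap. Libraries of the HIF-1α pool lay below all control libraries for 11.2% of tested genes. With the replicate block KRT18 was called after HIF-1α (log2 fold change -0.86, adjusted p = 0.0405 from edgeR), beside 2.55% of tested genes as lower. The call was lost without 7 of the 9 libraries in turn. Without HIF-1α replicate 2, HIF-2α replicate 1, control replicate 2 or control replicate 3, the fit called 0% of all tested genes. Those losses are thus not particular to KRT18. KRT8 (-0.74, adjusted p = 0.0675 from edgeR) and PAX2 (-0.67, adjusted p = 0.0597 from edgeR) were not called. After HIF-2α the libraries of KRT8, KRT18 and PAX8 lay below those of control cells, as for 5.19% of tested genes, with none called. The margins were small. The highest HIF-2α library and the lowest control library were at 478 and 488 CPM for KRT8, 171.3 and 171.6 CPM for KRT18 and 219 and 224 CPM for PAX8. The part of these differences in the results was not tested.

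HIF1A was at 171, 1682 and 473 CPM in replicates 1, 2 and 3 of the HIF-1α pool, 15.3, 30.4 and 17.5 CPM in the HIF-2α pool and 30.4, 36.7 and 152 CPM in the control cells. Virus and endogenous gene are not separated in these counts. Replicate 2 of the HIF-1α pool thus stood above the other libraries in HIF1A, and control replicate 3 stood above the other controls, also in the HIF target CA9 (14.3 CPM against 0 and 0.171 CPM). For several of the genes whose results rest on either library, values without it are also given. EPAS1, the gene of HIF-2α, was at 946, 3244 and 880 CPM in the HIF-2α pool, 575, 627 and 397 CPM in the HIF-1α pool and 456, 224 and 162 CPM in the control cells. On the log2 scale it differed from control by 2.59 after HIF-2α (adjusted p = 0.490 from edgeR) and 0.93 after HIF-1α (adjusted p = 0.365 from edgeR). With the replicate block these were 2.48 (adjusted p = 0.0690 from edgeR) and 0.95 (adjusted p = 0.154 from edgeR). In pools of transduced cells, a lower share of cells making an RNA and less RNA per cell cannot be told apart.

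All 9 genes passed the filter on low counts, and none passed an adjusted p of 0.05 in any of the 3 comparisons between pools with edgeR's quasi-likelihood test. That fit called 0% of the 14225 tested genes in the HIF-1α pool against control cells, 0% in the HIF-2α pool against control cells and 0.0492% between both HIF pools. Its count of 0 among the 9 genes therefore says nothing particular about them. At an unadjusted p under 0.05 this fit held PDK1 and PDK3 as higher after HIF-1α (11.1% of tested genes), LDHB as lower after HIF-2α (2.54%) and PDK4 as higher in the HIF-1α than in the HIF-2α pool (9.04%). With the replicate number as a block in the fit, 7.96%, 0.267% and 5.93% of the tested genes were called in the same 3 comparisons, and the number of called genes among the 9 was again 0 in each. Libraries of the same replicate number were alike across pools, which the fit without a block ignores. Its common dispersion was 0.141, against 0.0603 with the block. In the account of each of the 9 genes below, edgeR values are from the fit without the block unless the block is named. Both comparisons with control cells use the same 3 control libraries. The median log2 fold change of the 9 genes was 0.17, -0.32 and 0.15, beside 0.04, -0.02 and 0.02 over all tested genes.

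**Figure D1:**
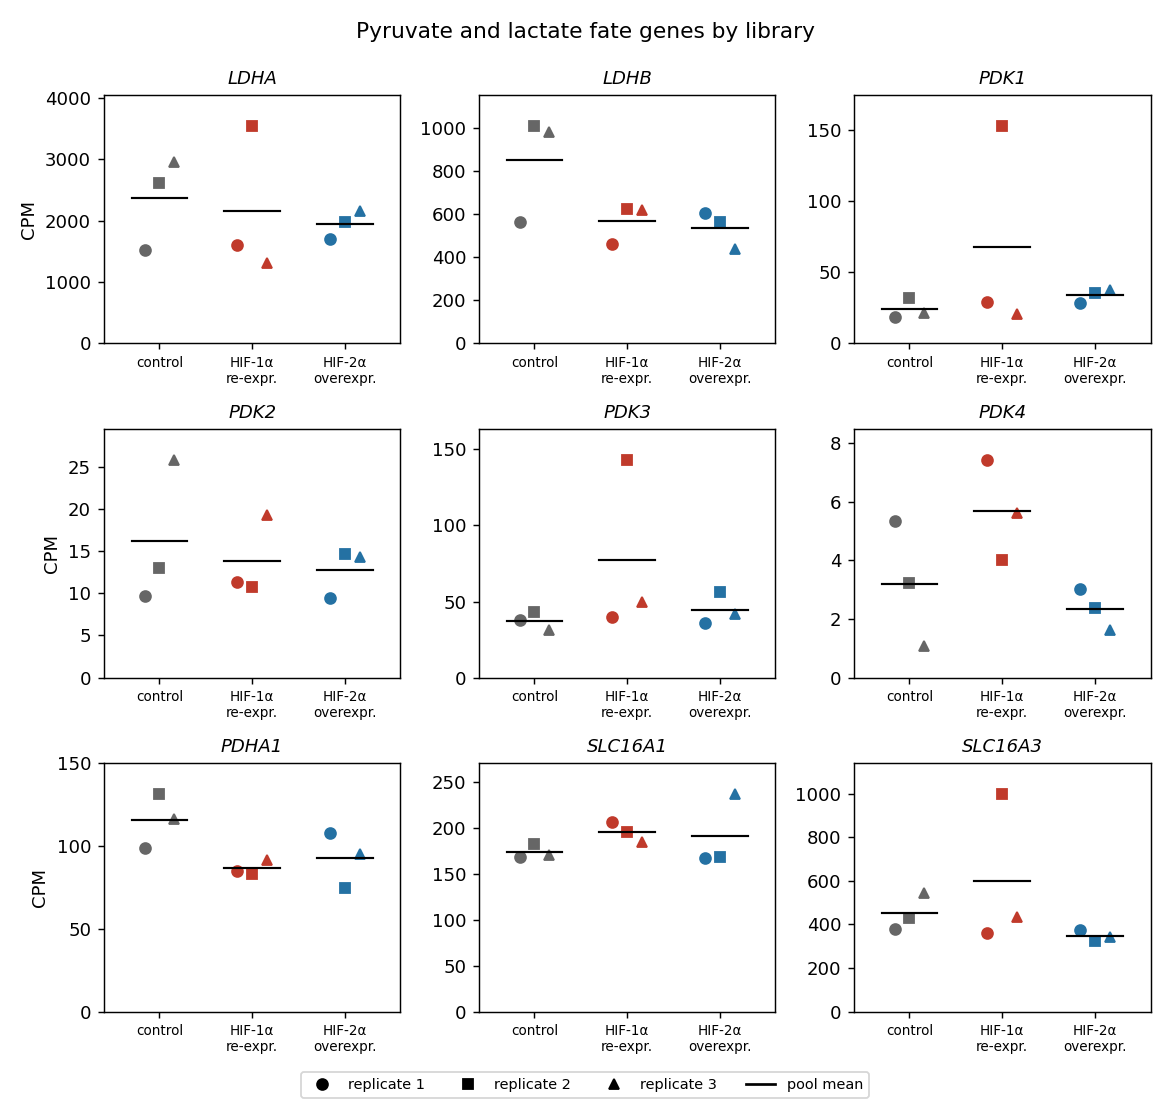
Expression of the 9 genes in CPM (vertical axes, each from 0) in the 3 cell pools; symbols are single libraries by replicate number and bars are pool means. Replicate 2 of the HIF-1α pool is the highest of all 9 libraries for LDHA, PDK1, PDK3 and SLC16A3, while the libraries of the pools overlap for most genes.

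LDHA, the subunit typical of glycolytic tissue, had a HIF window at its start in every list. The gene lies on chromosome 11 from 18416107 to 18429972 (GRCh37, plus strand, ENSG00000134333), and the 300 bases upstream of its canonical start are shown because the windows of all 7 lists cover them. Capitals mark the HIF core, ACGTG with its variant GCGTG, on either strand, so that CACGT and its variant CACGC mark a core on the opposite strand. Overlapping matches were merged.

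LDHA upstream, chr11:18415810-18416109, plus strand: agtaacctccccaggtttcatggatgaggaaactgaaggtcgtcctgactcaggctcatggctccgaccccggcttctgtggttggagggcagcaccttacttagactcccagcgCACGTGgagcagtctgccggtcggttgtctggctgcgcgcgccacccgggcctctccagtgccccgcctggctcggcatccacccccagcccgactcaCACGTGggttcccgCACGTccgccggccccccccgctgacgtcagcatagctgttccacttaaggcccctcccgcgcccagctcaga

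This stretch held 3 HIF cores, at 185 to 180, 87 to 82 and 73 to 69 bases before the start, the first and second of them as CACGTG, which reads as a core on both strands. At least 3 cores were present in 11.9% of 13616 tested genes with a window of this length, and at least 1 in 62.6%. Such a match is a description of letters and not of binding. The lists give windows of 2500 bp with no signal, so that positions are taken from their midpoints. Around LDHA the midpoints lay from -0.169 to 0.738 kb from the start, either upstream of the transcript or in intron 1. The 7 windows had 1593 bp in common (chr11:18415598-18417190).

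A further LDHA site lay about 10.6 kb upstream, outside the 10 kb distance used for the counts. It was listed for HIF-1β and HIF-2α in control cells and for HIF-2α in the HIF-2α pool (midpoints at -10.634, -10.65 and -10.754 kb), and no window of the HIF-1α pool lay there. The 300 bases around the midpoint of the HIF-2α window of control cells held no HIF core and 1 match to the AP-1 letters TGAGTCA, searched on both strands and marked here in capitals. The AP-1 search was added after values had been seen.

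LDHA distal, chr11:18405310-18405609, plus strand: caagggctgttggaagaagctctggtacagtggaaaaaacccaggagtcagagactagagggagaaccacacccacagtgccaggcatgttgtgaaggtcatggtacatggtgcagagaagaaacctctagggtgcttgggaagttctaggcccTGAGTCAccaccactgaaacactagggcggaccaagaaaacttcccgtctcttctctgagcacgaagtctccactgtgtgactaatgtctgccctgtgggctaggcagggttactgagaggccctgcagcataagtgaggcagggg

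AP-1 letters were present in 27.5% of equally long stretches around the midpoints of all HIF-2α windows of control cells, and the HIF core in 59.7%. A match to the AP-1 letters is therefore common in that list, and 1 also lies, in lower case, in the LDHA upstream stretch printed above.

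The LDHA RNA itself was at 1526, 2614 and 2952 CPM in control replicates 1, 2 and 3, at 1599, 3548 and 1307 CPM in the HIF-1α pool and at 1696, 1974 and 2156 CPM in the HIF-2α pool. The pools overlap, and the HIF-1α pool holds both the highest and the lowest library. Its log2 fold change against control was -0.14 (SE 0.40, adjusted p = 0.874 from edgeR) after HIF-1α and -0.28 (SE 0.40, adjusted p = 0.915 from edgeR) after HIF-2α. Within replicate numbers the ratio of the HIF-1α pool to control cells was 1.05, 1.36 and 0.443. Without replicate 2 of the HIF-1α pool the log2 fold change was -0.73 (adjusted p = 0.345 from edgeR), and without control replicate 3 it was 0.05 (adjusted p = 0.971 from edgeR). LDHA has many processed pseudogenes and the authors dropped fragments without a unique position, so its counts may be incomplete.

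LDHB, the subunit of oxidative tissue, had a window in 1 of the 7 lists. It lies on chromosome 12 from 21788276 to 21910791 (minus strand, ENSG00000111716). Its upstream stretch is shown for contrast with LDHA, since it held 0 HIF cores and therefore no capitals.

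LDHB upstream, chr12:21810777-21811076, minus strand: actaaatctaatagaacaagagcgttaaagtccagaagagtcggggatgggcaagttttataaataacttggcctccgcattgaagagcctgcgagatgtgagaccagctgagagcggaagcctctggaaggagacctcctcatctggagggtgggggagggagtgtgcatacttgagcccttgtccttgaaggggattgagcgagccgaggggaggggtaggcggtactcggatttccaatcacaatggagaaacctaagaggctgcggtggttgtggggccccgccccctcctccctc

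A single list, that of HIF-1α, had a window there, with its midpoint 0.334 kb downstream of the canonical start in intron 1. LDHB RNA was at 563, 1008 and 982 CPM in control cells, 460, 623 and 620 CPM in the HIF-1α pool and 606, 561 and 440 CPM in the HIF-2α pool. Replicates 2 and 3 of both HIF pools lay below replicates 2 and 3 of the control cells, while the replicate 1 libraries lay close together. After HIF-1α it was lower in all 3 replicate pairs, with ratios of 0.817, 0.618 and 0.632, a pattern that 25% of the tested genes share. Its log2 fold change was -0.58 (SE 0.28, adjusted p = 0.281 from edgeR, and 0.139 with the replicate block). After HIF-2α it was -0.67 (SE 0.28, adjusted p = 0.837 from edgeR, and 0.311 with the block).

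Since levels of different genes compare only per length, CPM were also divided by the length of the canonical transcript. On this scale LDHA was 1055 ± 332 CPM per kb (SD, n = 3) and LDHB 653 ± 192 CPM per kb (SD, n = 3) in control cells, with overlapping libraries. LDHA made up 61.2%, 60.1% and 63.6% of the sum of both in control replicates 1, 2 and 3. The share was 66.9%, 76.8% and 55.1% in the HIF-1α pool and 62.0%, 67.2% and 74.0% in the HIF-2α pool. All 9 libraries thus had more LDHA than LDHB per kb, and the spread of the share was wider in both HIF pools than in the control cells. With the length of all annotated exons, LDHA remained above LDHB in every pool mean (392 against 285 CPM per kb in control cells).

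PDK1, a kinase that acts on pyruvate dehydrogenase and a known HIF target, had windows at its start in the same lists as LDHA. It lies on chromosome 2 from 173420101 to 173473397 (plus strand, ENSG00000152256). All 7 lists had a window over its start, with midpoints from -0.452 to 0.067 kb and 1981 bp in common (chr2:173419635-173421615). The upstream stretch is shown because it carries 4 HIF cores, the most among the 9 genes, including CACGT at 17 to 13 and at 8 to 4 bases before the start.

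PDK1 upstream, chr2:173420518-173420817, plus strand: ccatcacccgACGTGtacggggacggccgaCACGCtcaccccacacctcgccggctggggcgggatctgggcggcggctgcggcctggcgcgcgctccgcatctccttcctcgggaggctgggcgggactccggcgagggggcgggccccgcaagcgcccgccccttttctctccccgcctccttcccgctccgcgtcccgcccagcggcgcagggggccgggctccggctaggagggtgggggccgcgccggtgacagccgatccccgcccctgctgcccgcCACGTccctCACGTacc

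LDHA and PDK1 were the members with a window within 10 kb in all 7 lists, which was the case for 1.86% of 13674 tested genes placed on the annotation. The antisense transcript PDK1-AS1 overlaps the PDK1 start, and the use of strand in the counting is not given in the sources used here, so its reads and those of PDK1 cannot be told apart.

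PDK1 RNA was at 18.5, 32.1 and 21.6 CPM in control cells, 28.9, 153 and 20.9 CPM in the HIF-1α pool and 28.6, 35.2 and 37.4 CPM in the HIF-2α pool. Replicate 2 of the HIF-1α pool stood far above the other 8 libraries, and the other libraries of that pool overlapped the control cells. Its log2 fold change after HIF-1α was 1.49 (SE 0.63, adjusted p = 0.242 from edgeR), and 1.10 with the replicate block (SE 0.48, adjusted p = 0.142 from edgeR). In fits without the block, it was 0.0215 without replicate 2 of that pool (SE 0.31, adjusted p = 0.981 from edgeR). Without control replicate 3 it was 1.41 (adjusted p = 0.428 from edgeR). Both of these fits called 0% of all tested genes. With the block, the adjusted p without replicate 2 of that pool was 0.664 (edgeR). The lowest log2 fold change over all fits with the block was 0.20. HIF1A was at its highest in the same library, and its part in the PDK1 value was not tested. After HIF-2α, PDK1 was higher in all 3 pairs (ratios 1.54, 1.10 and 1.73, a pattern in 19.7% of tested genes), with a log2 fold change of 0.49 (SE 0.62, adjusted p = 0.902 from edgeR).

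PDK3, a further kinase of the family on chromosome X (24483361 to 24568583, plus strand), had a window in 1 list. It was listed for HIF-1β in the HIF-1α pool alone among the 7 lists, at 0.136 kb in exon 1, and its upstream stretch held 2 cores. Its RNA was at 37.8, 43.0 and 31.1 CPM in control cells, 40.0, 143 and 49.7 CPM in the HIF-1α pool and 35.9, 56.1 and 41.5 CPM in the HIF-2α pool. As for PDK1, replicate 2 of the HIF-1α pool was the highest library. The ratio to control was 1.06, 3.33 and 1.60 in replicates 1, 2 and 3, above 1 in all 3 pairs as for 29% of tested genes. PDK3 had a log2 fold change of 1.06 (SE 0.43, adjusted p = 0.233 from edgeR), and 0.86 with the block (SE 0.29, adjusted p = 0.0863 from edgeR). DESeq2 with the block called it (0.83, adjusted p = 0.0398), a fit that called 11.7% of tested genes as higher. edgeR with the block called it as well when control replicate 1 was left out (adjusted p = 0.0427), beside 9.19% of tested genes. In fits without the block, the log2 fold change was 0.24 without replicate 2 of the HIF-1α pool (adjusted p = 0.689 from edgeR). Without control replicate 3 it was 0.94 (adjusted p = 0.428 from edgeR). Both of these fits called 0% of all tested genes. Over all fits with the block, those by DESeq2 and with libraries left out included, it was 0.35 to 1.23.

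PDK4, the kinase best known for its induction by fasting and fatty acids, was low in these cells. It was at 5.33, 3.21 and 1.07 CPM in control cells, 7.43, 4.0 and 5.60 CPM in the HIF-1α pool and 3.01, 2.37 and 1.62 CPM in the HIF-2α pool. The libraries of the HIF pools did not overlap, the HIF-1α pool being higher, as for 10.4% of tested genes. The log2 fold change between these pools was 1.28 (SE 0.54, adjusted p = 0.338 from edgeR), and 1.34 with the block (SE 0.40, adjusted p = 0.0877 from edgeR). DESeq2 with the block called it (1.31, adjusted p = 0.0158), where 7.92% of tested genes were called as higher. edgeR with the block called it without control replicate 3 (1.28, adjusted p = 0.0493), beside 4.02%. Against control cells the log2 fold change after HIF-1α was 0.82 (SE 0.54, adjusted p = 0.407 from edgeR), and 1.01 with the block (SE 0.40, adjusted p = 0.122 from edgeR). Here control replicate 3, the lowest of the 9 libraries, matters: without it and without the block the value was 0.40 (adjusted p = 0.688 from edgeR). No list had a window within 10 kb of a PDK4 start, and its upstream stretch held 1 core.

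PDK2, a widely expressed kinase of the family, was at 9.68, 13 and 25.8 CPM in control cells, 11.3, 10.8 and 19.2 CPM in the HIF-1α pool and 9.46, 14.6 and 14.3 CPM in the HIF-2α pool. All 3 pools overlap, and control replicate 3 is the highest library. PDK2 had a log2 fold change of -0.23 (SE 0.40, adjusted p = 0.779 from edgeR) after HIF-1α and -0.34 (SE 0.40, adjusted p = 0.891 from edgeR) after HIF-2α. Without control replicate 3 the former was 0.27 (adjusted p = 0.746 from edgeR), so that its sign rests on that library. The 7 lists held no window within 10 kb, although 2 HIF cores lie in the upstream stretch.

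PDHA1, the target of these kinases, lies on chromosome X (19362011 to 19379836, plus strand) and had no window within 50 kb in any list, with 3 cores in the upstream stretch. It was at 98.9, 131 and 116 CPM in control cells, 84.8, 83.3 and 91.8 CPM in the HIF-1α pool and 108, 74.9 and 95.4 CPM in the HIF-2α pool. The libraries of the HIF-1α pool all lay below the lowest control library, as for 11.2% of tested genes. On the log2 scale the fold change was -0.42 (SE 0.20, adjusted p = 0.288 from edgeR, and 0.164 with the block). After HIF-2α it was -0.32 (SE 0.20, adjusted p = 0.842 from edgeR), with overlapping libraries.

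Per kb of canonical transcript, PDK3 was the most abundant of the 4 kinases in every library. It made up 79.3%, 77.8% and 65.3% of their sum in control replicates 1, 2 and 3, 75.4%, 84.4% and 76.5% in the HIF-1α pool and 78.4%, 81.1% and 76.4% in the HIF-2α pool. PDK1 made up 4.81% to 7.20% in control cells and 11.1% at most, in replicate 2 of the HIF-1α pool. This order rests on the transcript chosen for the length: the canonical PDK3 transcript has 1.741 kb and all its annotated exons 17.456 kb. With all annotated exons, PDK3 had 2.14 CPM per kb in control cells against 2.95 for PDK2 and 1.62 for PDK1, and the libraries of these neighbours overlapped. On that scale PDK1 made up 17.8% to 28.1% of the sum in control cells. In replicate 2 of the HIF-1α pool it made up 48.2%, the highest share of the 4 kinases there. The order of the kinases is thus not fixed by these data, except that PDK4 had the lowest mean in each pool with either length.

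**Figure D2:**
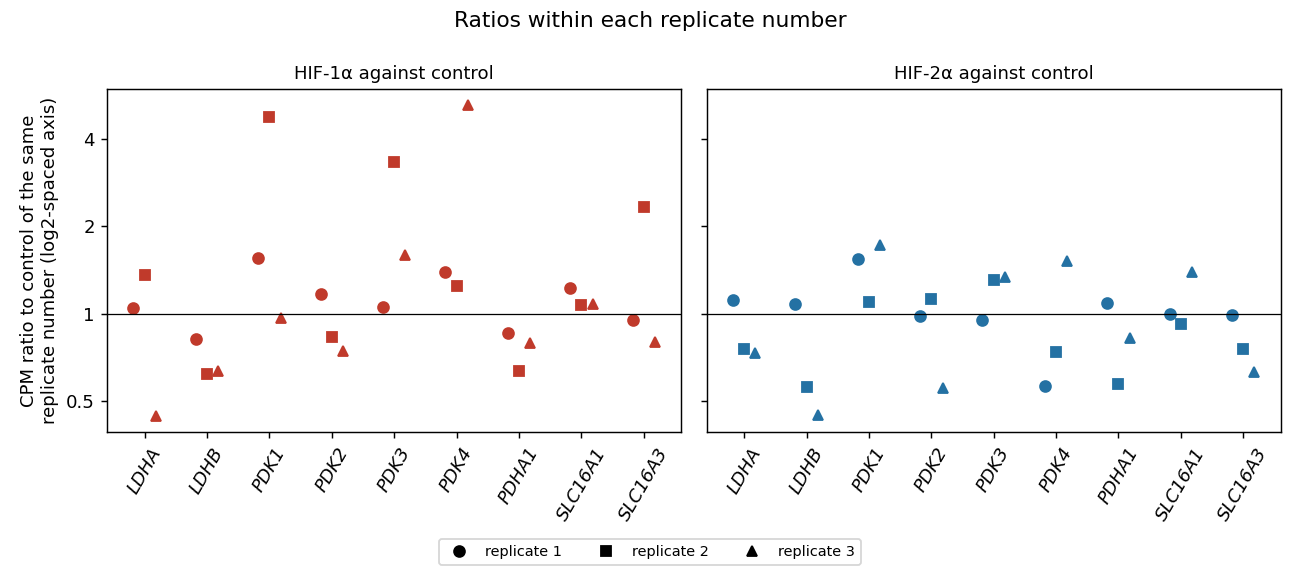
Ratio of CPM in the HIF-1α (left) or HIF-2α (right) library to the control library of the same replicate number, on an axis spaced in log2, 3 symbols per gene. For PDK1, PDK3 and SLC16A3 the ratio of replicate 2 after HIF-1α (4.75, 3.33 and 2.33) lies above those of replicates 1 and 3, and for PDK4 that of replicate 3 (5.25) does.

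SLC16A3, the lactate exporter of glycolytic cells, had several HIF windows. It lies on chromosome 17 from 80175810 to 80219005 (plus strand, ENSG00000141526), with 19 annotated start sites, and 6 of the 7 lists had a window within 10 kb of one of them. The list without one was that of HIF-2α in the HIF-1α pool. In each of the 6 lists a midpoint lay from 1.715 to 3.767 kb downstream of the canonical start, in intron 1, and in 5 of them others lay between -16.193 and -11.585 kb, near the most upstream start. Of these upstream midpoints, that at -16.193 kb lay inside the neighbouring gene CCDC57. Those at -12.519, -13.701 and -14.711 kb lay inside another annotated gene, ENSG00000264548. The stretch around the midpoint of the HIF-2α window of control cells is shown, as the site that the control cells shared with both HIF pools. It held 2 HIF cores, both as CACGC.

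SLC16A3 intron 1, chr17:80188677-80188976, plus strand: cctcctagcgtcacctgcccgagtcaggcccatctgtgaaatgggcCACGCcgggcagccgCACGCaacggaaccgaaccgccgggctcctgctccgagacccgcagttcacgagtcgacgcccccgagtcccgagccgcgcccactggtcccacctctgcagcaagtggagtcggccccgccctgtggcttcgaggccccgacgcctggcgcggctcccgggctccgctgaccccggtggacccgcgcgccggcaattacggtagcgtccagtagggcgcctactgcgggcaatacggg

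The 300 bases before the canonical start held 2 cores of the form ACGTG, at 68 to 64 and 55 to 51 bases, and a window covered them in the list of HIF-1β in the HIF-1α pool (midpoint at -0.192 kb).

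SLC16A3 upstream, chr17:80186618-80186917, plus strand: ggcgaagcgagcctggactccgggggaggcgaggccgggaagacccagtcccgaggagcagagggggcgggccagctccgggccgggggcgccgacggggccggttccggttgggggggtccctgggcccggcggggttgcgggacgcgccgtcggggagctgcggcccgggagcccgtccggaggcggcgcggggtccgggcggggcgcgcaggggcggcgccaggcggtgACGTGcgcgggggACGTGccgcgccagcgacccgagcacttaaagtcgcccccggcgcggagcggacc

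SLC16A3 RNA was at 380, 429 and 543 CPM in control cells, 362, 999 and 434 CPM in the HIF-1α pool and 375, 323 and 341 CPM in the HIF-2α pool. Replicate 2 of the HIF-1α pool was again the highest, and the libraries of the HIF-2α pool all lay below the lowest control library, by a small margin in replicate 1, as for 5.19% of tested genes. After HIF-1α its log2 fold change was 0.41 (SE 0.36, adjusted p = 0.546 from edgeR). Without replicate 2 of that pool it was -0.21 (adjusted p = 0.706 from edgeR), so that its sign rests on that library. After HIF-2α it was -0.38 (SE 0.36, adjusted p = 0.870 from edgeR). Between the HIF pools it was 0.79 (SE 0.36, adjusted p = 0.374 from edgeR), and 0.17 without replicate 2 of the HIF-1α pool (adjusted p = 0.821 from edgeR).

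SLC16A1 carries lactate in both directions. It lies on chromosome 1 from 113454469 to 113500215 (minus strand). It was at 169, 183 and 171 CPM in control cells, 206, 196 and 185 CPM in the HIF-1α pool and 168, 168 and 237 CPM in the HIF-2α pool. The libraries of the HIF-1α pool lay above all control libraries, as for 12.9% of tested genes, and the ratios within replicate numbers were 1.22, 1.07 and 1.08. The log2 fold change was 0.17 (SE 0.20, adjusted p = 0.676 from edgeR). After HIF-2α it was 0.13 (SE 0.20, adjusted p = 0.921 from edgeR). HIF-1β in control cells and HIF-1α and HIF-1β in the HIF-1α pool had windows at the canonical start (midpoints at -0.177, 0.011 and 0.453 kb), where the upstream stretch holds 3 cores. HIF-2α in the HIF-2α pool had its window 19.145 kb into the gene, at a start of a shorter transcript, and HIF-1β in the HIF-1α pool had a further one there.

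Per kb of canonical transcript, SLC16A3 was above SLC16A1 in every library. It made up 76.5%, 77.2% and 82.1% of the sum of both in control cells, 71.7%, 88.1% and 77.3% in the HIF-1α pool and 76.3%, 73.5% and 67.5% in the HIF-2α pool. With the length of all annotated exons the share was 49.7% in replicate 3 of the HIF-2α pool, where SLC16A1 was then the higher, and 54.6% to 77.8% in the other 8 libraries. In control cells the order of levels per kb of canonical transcript was LDHA, LDHB, SLC16A3, SLC16A1, PDHA1, PDK3, PDK2, PDK1 and PDK4. LDHA overlapped LDHB and PDK1 overlapped PDK4, while the other neighbours in this order did not overlap between libraries.

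**Figure D3:**
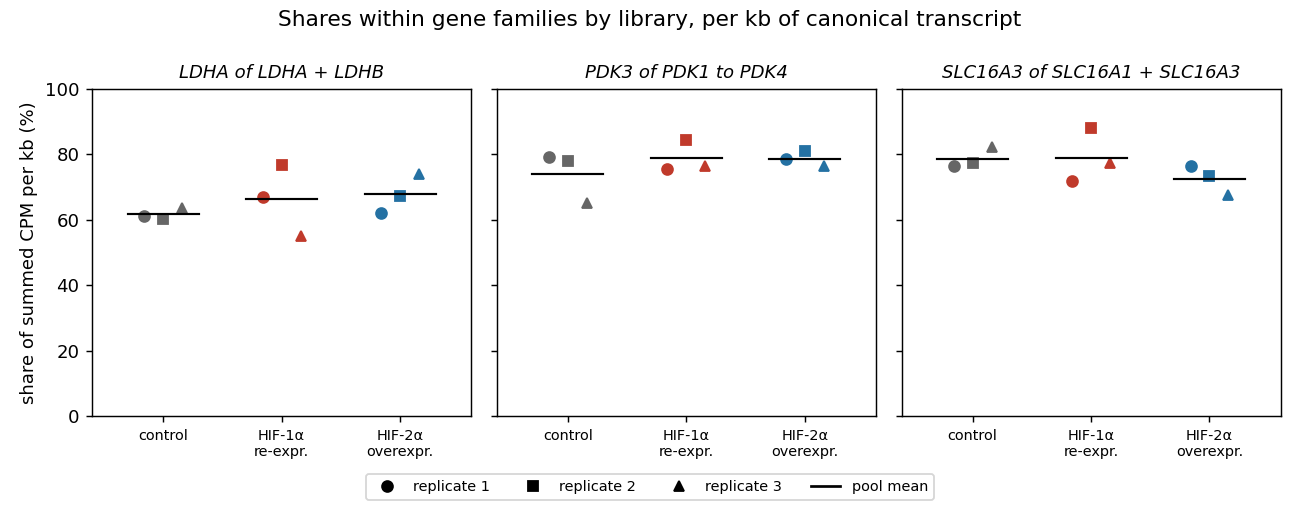
Share (vertical axis, 0% to 100%) of LDHA in LDHA plus LDHB, of PDK3 in the 4 kinases and of SLC16A3 in SLC16A1 plus SLC16A3, from CPM per kb of canonical transcript, in each library with the pool mean as a bar. All 9 libraries lie above 50% in each panel, and replicate 2 of the HIF-1α pool has the highest share in each.

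Over the 7 lists, the count of these 9 genes with a window within 10 kb followed the size of the list only in part. HIF-1β in control cells (6572 windows) had 4 of 9 genes, beside 25.8% of tested genes, and HIF-2α in control cells (1719 windows) had 3 of 9, beside 5.35%. In the HIF-1α pool HIF-1α had 5 of 9 (34.7%), HIF-1β 5 of 9 (40.9%) and HIF-2α 2 of 9 (4.23%). In the HIF-2α pool HIF-1β had 3 of 9 (16.3%) and HIF-2α 4 of 9 (14.6%). LDHA and PDK1 were in all 7 counts and SLC16A3 in 6. PDK2, PDK4 and PDHA1 were in none of them. With 1 library per antiserum and pool these counts have no replicate check and no test, and a window that is not listed can have a signal under the authors' threshold.

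**Figure D4:**
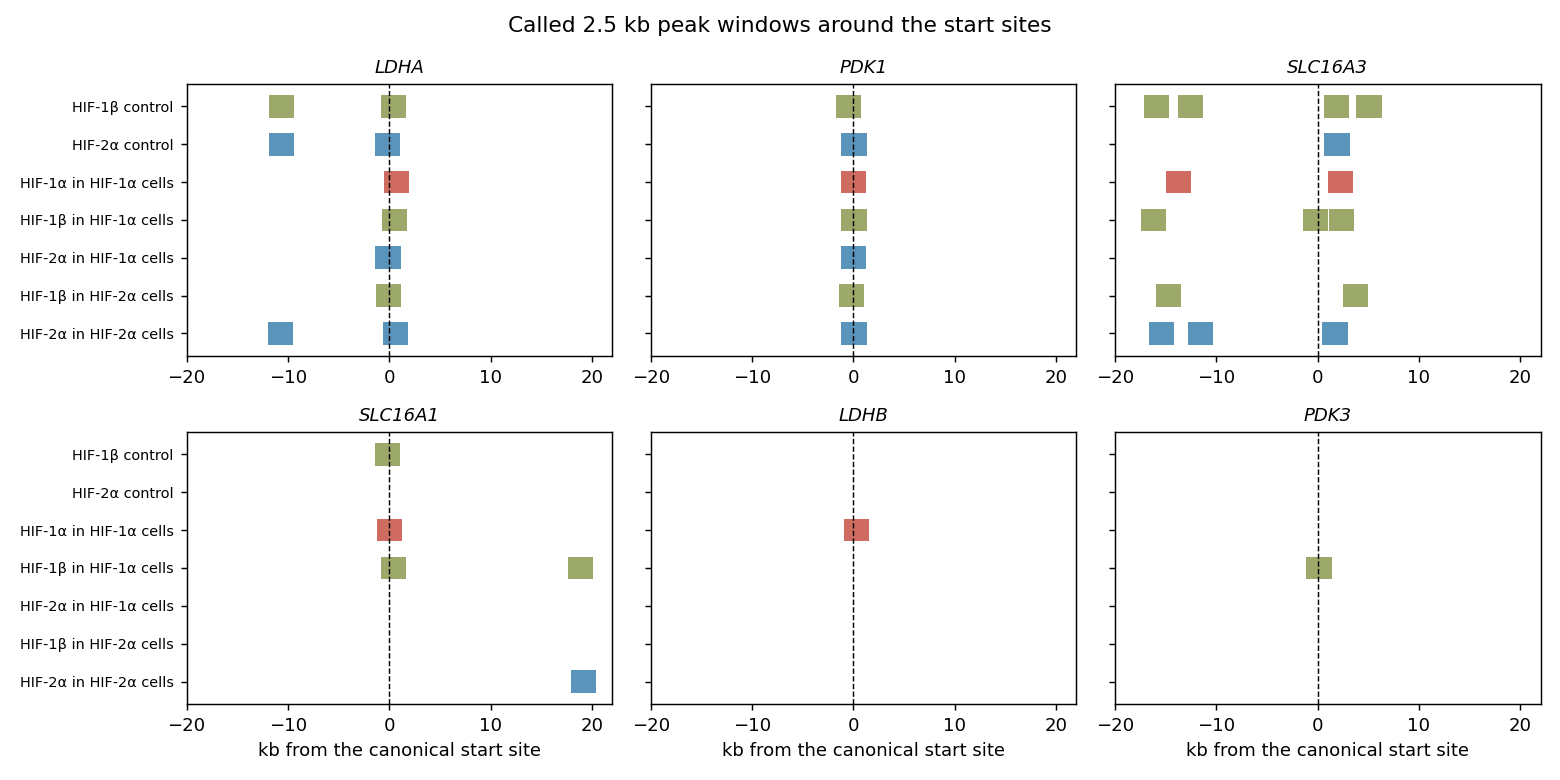
Listed ChIP-seq windows, drawn to scale at 2.5 kb, around the canonical start site (dashed line, 0 kb, transcription to the right) of the 6 genes that had a window within 10 kb of a start; rows are the 7 lists and colours the antiserum. LDHA and PDK1 have a window at the start in every row, and LDHA has a further one near -10.6 kb in 3 rows.

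The other genes of the pathway were taken as a list. Of 30 listed genes (pyruvate kinases, other lactate dehydrogenases, the rest of the pyruvate dehydrogenase complex and its phosphatases, pyruvate carriers, pyruvate carboxylase, malic enzymes, alanine transaminases, further lactate carriers and their chaperones), all were in the count table and 21 passed the filter on low counts. None of the 21 passed in the fit without a block in any comparison, and their median log2 fold change was 0.00, -0.14 and 0.19 in HIF-1α against control, HIF-2α against control and HIF-1α against HIF-2α. With the block, 1 rose and 1 fell after HIF-1α, beside 5.41% and 2.55% of tested genes, 0 passed after HIF-2α, and 1 was higher in HIF-1α than in HIF-2α cells, beside 4.54%. Other settings that kept all libraries of the pools compared called 0 to 3 pathway genes after HIF-1α. Of all tested genes, those with 1 to 3 called 5.25% (DESeq2), 21.6% (DESeq2 with the block), 7.8% (RLE factors and the block), 7.41% (no filter and the block) and 1.11% (only the pools compared, and the block). RLE factors, no filter and only the pools compared, each without the block, called 0, beside 0% of tested genes. Between the HIF pools 1 was called by DESeq2 with the block (12.2% of tested genes), with RLE factors and the block (5.83%) and without a filter and with the block (5.59%). The other such settings called 0 there. Their shares of tested genes were 4.43% (DESeq2), 0.0492% (RLE factors), 0.428% (no filter), 0% (only the pools compared) and 3.68% (only the pools compared, and the block).

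The gene that fell was MPC2, a subunit of the carrier that brings pyruvate into mitochondria. It was at 58.1, 110 and 113 CPM in control cells, 32.1, 43.3 and 52.2 CPM in the HIF-1α pool and 54.0, 52.2 and 67.7 CPM in the HIF-2α pool. Its libraries in the HIF-1α pool all lay below those of control cells, as for 11.2% of tested genes. The log2 fold change was -1.14 without the block (SE 0.29, adjusted p = 0.149 from edgeR) and -1.12 with it (SE 0.20, adjusted p = 0.0320 from edgeR). Leaving out 1 library at a time with the block, MPC2 was called in 3 of 9 fits, without control replicate 1, HIF-2α replicate 2 or HIF-2α replicate 3, with log2 fold changes from -1.31 to -0.97 and adjusted p from 0.0190 to 0.197 (edgeR). Without HIF-1α replicate 2 it was -1.13 (adjusted p = 0.0803 from edgeR) and without control replicate 3 -1.10 (adjusted p = 0.124 from edgeR). Both of these fits called 0% of all tested genes in this comparison, as did those without HIF-2α replicate 1 or control replicate 2. Its partner MPC1 was at 21.1, 9.99 and 11.3 CPM in control cells and 18.7, 5.44 and 8.17 CPM in the HIF-1α pool. It was lower in all 3 replicate pairs, as for 25% of tested genes, although the ranges overlapped. The log2 fold change was -0.39 without the block (SE 0.52, adjusted p = 0.705 from edgeR). With the block it was -0.50 (SE 0.21, adjusted p = 0.138 from edgeR).

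The gene that rose was LDHD, which encodes the dehydrogenase of D-lactate. Its level was very low, at 0.569, 0.0284 and 0.756 CPM in control cells and 1.23, 0.734 and 4.77 CPM in the HIF-1α pool, with 1 count in control replicate 2. With the block its log2 fold change was 2.34 (SE 0.58, adjusted p = 0.0452 from edgeR), and 2.498 against the HIF-2α pool (adjusted p = 0.0450 from edgeR). Each of these calls was kept in 2 of 9 fits that left out 1 library with the block. Without HIF-1α replicate 2 or control replicate 3, these fits called 0% of all tested genes against control. Against control LDHD was 2.18 without HIF-1α replicate 2 (adjusted p = 0.102 from edgeR) and 2.41 without control replicate 3 (adjusted p = 0.173 from edgeR). Against the HIF-2α pool the values were 2.31 (adjusted p = 0.137 from edgeR) and 2.501 (adjusted p = 0.0663 from edgeR). The libraries of control cells and the HIF-1α pool overlapped. PKM, the pyruvate kinase of these cells, was at 3453 to 3944 CPM in control, 1574 to 3928 CPM in the HIF-1α pool and 2291 to 2785 CPM in the HIF-2α pool, with log2 fold changes of -0.49 (adjusted p = 0.417 from edgeR) and -0.58 (adjusted p = 0.842 from edgeR) against control. BSG, the chaperone of both lactate carriers, changed by -0.16 (adjusted p = 0.789 from edgeR) and -0.27 (adjusted p = 0.883 from edgeR).

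**Figure D5:**
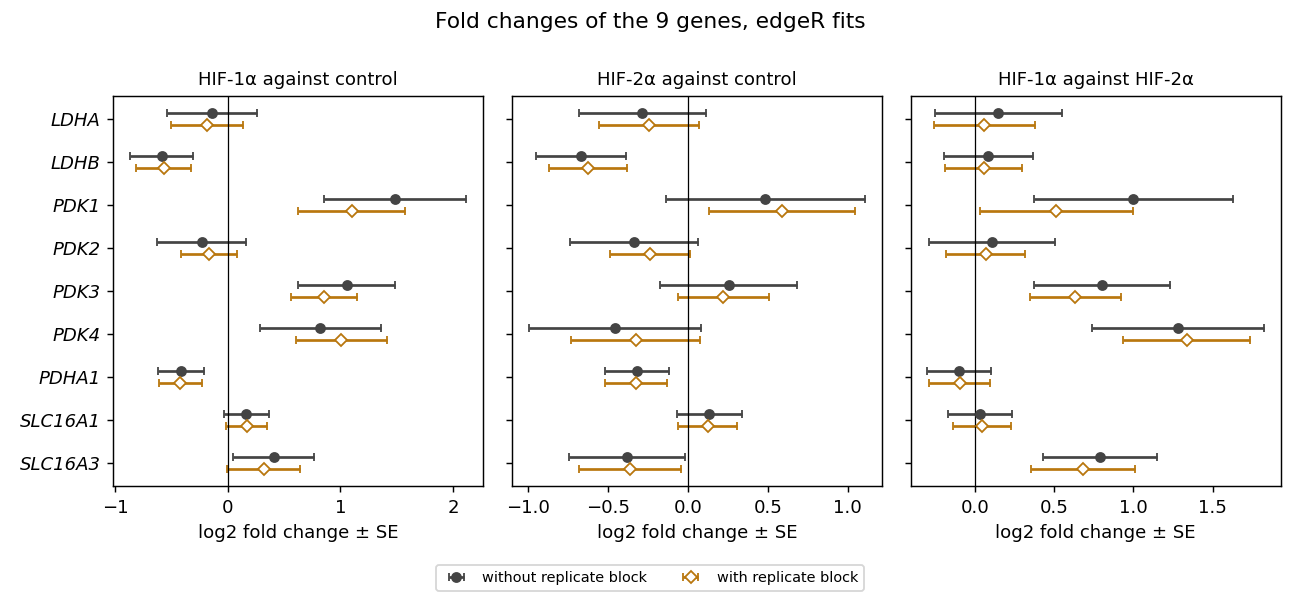
Log2 fold changes (horizontal axes, bars are ± 1 SE) of the 9 genes in the 3 comparisons, from edgeR without (filled circles) and with (open diamonds) the replicate block. PDK1, PDK3 and PDK4 lie to the right of 0 after HIF-1α and LDHB and PDHA1 to the left, with none of them past an adjusted p of 0.05.

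The genes most like LDHA, PDK1 and SLC16A3 across the 9 libraries were sought by Pearson's r of log2 CPM over 10669 other genes with a mean of at least 5 CPM. The points share libraries, replicate effects and pools, and the values are a description. LDHA was most like ENOSF1 (r = 0.938), PGAM1 (0.932), a glycolytic enzyme, and COBLL1 (0.929). PDK1 was most like EGLN1 (0.980), which encodes the prolyl hydroxylase PHD2 that marks HIF-α for degradation, and then CCRN4L (0.935) and GOLGA8A (0.934). SLC16A3 was most like PPP1R16A (0.955), PPME1 (0.954) and PGK1 (0.953), the latter a glycolytic enzyme. Without replicate 2 of the HIF-1α pool, r was 0.859, 0.885 and 0.599 for the genes named with PDK1 and 0.760, 0.875 and 0.742 for those named with SLC16A3, while it was 0.925, 0.888 and 0.926 for those named with LDHA. PDK1 and PDK3 had an r of 0.908 with each other over the 9 libraries.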

How the data were processed

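RNA-seq libraries (9) and ChIP-seq lists (7) were used, while 3 input libraries were not analysed here. The authors deposited raw counts per UCSC gene symbol, not normalized. By their methods and processing notes, reads were trimmed (Trim Galore 0.3.3), aligned to GRCh37 with TopHat2 2.0.8b and Bowtie 1.0.0, reduced to unique fragments and counted with HTSeq 0.5.4p3 in intersection-strict mode. The deposited peak lists hold positions of 2500 bp windows on GRCh37, found by both T-PIC and MACS on BWA 0.7.5a-r405 alignments and filtered on read number, without score, so ChIP depth is unknown.

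Counts were fitted with edgeR 4.0.16 in R 4.3.3 (TMM, filterByExpr, quasi-likelihood test over all 9 libraries, cell pool as the only term), with Benjamini-Hochberg adjustment over 14225 genes and a threshold of 0.05. DESeq2 1.42.0, RLE factors, no filter, 2 pools alone, leaving out libraries and a replicate block were alternatives. Deviations from pool means correlated at 0.348 to 0.652 for 9 pairs of libraries with the same replicate number and at -0.478 to 0.0281 for 18 pairs with different numbers, so the numbers pair the libraries. As no source says that replicates were separate cultures, p-values measure the spread between these libraries, which may be technical.

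Start sites, exon lengths and promoters came from GENCODE v44lift37 (samtools 1.23.1, pysam 0.24.0, Python 3.11.15, pandas 2.3.3, matplotlib 3.10.9). Tested symbols were placed by symbol or RefSeq synonym. The scripts were tested on simulated data. The members, the pathway and marker lists and the rule for named genes (the 9 members, HIF1A, EPAS1, pathway genes called with or without the block, PKM, BSG, MPC1, MPC2, and the 3 genes most like each of LDHA, PDK1 and SLC16A3) were chosen with earlier results of these data known.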

Additional observations from a re-analysis of the deposited data

How the results depend on the processing

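No member was called by edgeR with or without the replicate block. DESeq2 with the replicate block called 1 member after HIF-1α (PDK3, beside 21.6% of tested genes) and 1 between the HIF pools (PDK4, beside 12.2%). Leaving out libraries or replicate numbers, with and without the block, gave 0 to 1 member in each of these comparisons, the calls being PDK3 with the block and without control replicate 1 (adjusted p = 0.0427 from edgeR) and PDK4 with the block and without control replicate 3 (adjusted p = 0.0493 from edgeR), and 0 after HIF-2α. Of the pathway list after HIF-1α, 2 genes were called with the block (7.96% of tested genes), 1 by DESeq2 (5.25%) and 3 by DESeq2 with the block (21.6%). RLE factors with the block called 2 (7.8%), no filter with the block 3 (7.41%) and 2 pools with the block 1 (1.11%). The last 2 settings were chosen after seeing the data, as was leaving out a replicate number with the block. Without the block, RLE factors, no filter and 2 pools each called 0, beside 0% of tested genes. Between the HIF pools 1 was called with the block (5.93% of tested genes) and by DESeq2 with the block (12.2%). The same number was called with RLE factors and the block (5.83%) and without a filter and with the block (5.59%). Leaving out libraries gave 0 to 4, 0 to 1 and 0 to 1 pathway genes in HIF-1α against control, HIF-2α against control and HIF-1α against HIF-2α. Over all tested genes, fits that left out 1 library with the block called 0% to 16.6%, 0.0138% to 0.654% and 1.15% to 6.13% in the same comparisons.

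Of 243 fold changes of members under the settings that kept all libraries of the pools compared, 241 kept their direction and stayed uncalled. Of 648 with libraries left out, 63 turned in direction. These came from fold changes with the following log2 ranges. After HIF-1α: LDHA -0.73 to 0.30, PDK2 -0.55 to 0.27 and SLC16A3 -0.24 to 0.74. After HIF-2α: LDHA -0.52 to 0.088, PDK2 -0.60 to 0.17, PDK3 -0.024 to 0.52, PDK4 -0.87 to 0.13 and SLC16A1 -0.072 to 0.24. Between the HIF pools: LDHA -0.45 to 0.48, LDHB -0.20 to 0.36, PDK1 -0.47 to 1.51, PDK2 -0.21 to 0.35, PDK3 -0.022 to 1.11, PDHA1 -0.29 to 0.063 and SLC16A1 -0.10 to 0.25. PDK1 after HIF-1α kept its direction at 0.0215 to 1.91, and PDK3 at 0.24 to 1.38. The cause of these moves was not tested. A distance of 5 or 50 kb, 1 start per gene or a window over a start moved each count of members with a window by at most 1. Counts were low for LDHD (1 to 256 per library) and PDK4 (41 to 303), which limits their precision.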

Other observations

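Beyond 10 kb, PDK2 had a site in 4 of the 7 lists about 31 kb upstream of its canonical start, inside the neighbouring gene ITGA3, which encodes an integrin subunit. The midpoints lay at -30.898 kb (HIF-2α in control cells), -31.2 kb (HIF-1α), -30.876 kb (HIF-1β in the HIF-2α pool) and -30.604 kb (HIF-2α in the HIF-2α pool). HIF-1β in control cells and in the HIF-1α pool had windows farther out, at -44.41 and -47.276 kb and at -47.364 kb, and not at this site. These values were looked up after the distances had been seen, and no link between the site and PDK2 was tested.

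PDPR, a regulatory subunit of the phosphatase that removes the phosphate placed by the kinases described above, was at 45.4, 42.6 and 21.7 CPM in control cells and 59.3, 94.7 and 77.5 CPM in the HIF-1α pool, and it was named after its values were seen. Its log2 fold change was 1.08 (SE 0.32, adjusted p = 0.162 from edgeR) without the block and 1.07 with it (SE 0.29, adjusted p = 0.0517 from edgeR). DESeq2 with the block called it (1.05, adjusted p = 0.00705), beside 11.7% of tested genes as higher. Control replicate 3 was its lowest library. Without that library, edgeR with the block called 0% of all tested genes after HIF-1α, and the fold change of PDPR in that fit is not given here. In the HIF-2α pool PDPR was at 48.6, 81.4 and 73.0 CPM. PDPR has near-identical pseudogene copies, and how its reads were split is uncertain.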
